A study of Mus musculus with 10 samples.

Results

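Basal mammary cells, sorted as myoepithelial cells from Bptf wild-type and Bptf knockout mice, were compared gene by gene between the 2 basal columns of values in the deposited basal table. A gene was taken as a member when the mean of its normalised counts in the 2 columns was at least 50, and 5700 of the 24000 genes in the table met this. Just inside that limit lay Phf6, with a mean of 50.03, and just outside it Papss1, with 49.95. The series holds 10 libraries in 5 groups of 2, from female mice: luminal and myoepithelial cells of BptfWT and of Bptf knockout animals, and a knockout population labelled Bsecs, an abbreviation that the labels do not spell out. All mice received tamoxifen, to a total of 15 mg per kg of body weight, before the cells were isolated. The labels name neither the deleted exons nor a Cre driver and its cell type, nor the age of the mice, nor whether animals were pooled, and nothing says that the libraries of a group came from separate animals.

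Basal cells form the outer layer of mammary ducts and alveoli, between the luminal cells and the basement membrane. They carry keratins 5, 14 and 17 and the transcription factor p63, contract through smooth muscle actin and myosin when oxytocin binds its receptor, and include cells that can rebuild a gland on transplantation. BPTF is the largest subunit of NURF, a complex that slides nucleosomes with the ISWI motor SNF2L. A PHD finger of BPTF binds methylated histone H3 tails. The comparison was designed to ask what loss of Bptf does to basal cells.

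Which of the columns is the knockout cannot be read from the tables. The column headed KO in the basal table held the same count for every gene as the column headed WT in the table that sets it beside Bsecs, with 0 genes differing, and the other basal column was likewise headed WT in one table and KO in the other. With the headings taken as given, 14307 genes differed between columns of one name. The columns are therefore called by their depth, the smaller one with 2036681 recovered reads and the larger one with 2359861, and no direction below is a direction of genotype. Each column is 1 set of values with no spread between libraries, and nothing states whether it pools both libraries of its group. No difference therefore has a replicate check, and the 95% intervals given (exact binomial, from the read counts) cover counting error only. The smaller column held 16.2% of its reads in the ribosomal RNA precursor Rn45s and the larger one 9.76%.

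Both columns had the genes of basal cells. Smooth muscle actin Acta2 had 12512 reads in the smaller and 12085 in the larger column, myosin Myh11 3463 and 4223, Krt5 2392 and 1844, and the oxytocin receptor Oxtr 157 and 306. On a common scale of normalised counts over 5 populations, Acta2 stood at 16616 and 11621 in the basal columns and at 33.9 in luminal cells headed WT. Luminal keratins were lower than in luminal cells, with Krt18 at 514 and 266 in the basal columns and 17662 in that luminal column. Of the defining leukocyte genes, Ptprc and Cd3e had 0 reads in both columns, Cd68 21 and 13, Cd74 7 and 1, and Csf1r 0 and 3. The luminal transcription factor Elf5 had 0 and 4 reads, and Pecam1 of endothelium 15 and 85. Basal markers were thus present in both columns.

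Of the 5700 genes, 2692 (47.2%) had values within 1.5-fold of each other in the columns, while a ratio of 2-fold or more was found for 1004 (17.6%) on the side of the smaller column and for 673 (11.8%) on the side of the larger. The middle of the distribution ran from a log2 ratio (smaller over larger, of the value plus 1) of -0.51 to 0.74, with a median of 0.10. The log2 ratio was above 0 for 3084 genes and below 0 for 2616. Across these genes the log2 values of the columns had a Pearson correlation of 0.74 and a Spearman correlation of 0.71, given as a description since genes are not independent replicates. A gene is called here when its values differed at least 4-fold, and 198 genes (3.47%) were called higher and 118 (2.07%) lower in the smaller column, 316 (5.54%) in all. F2r, at a log2 ratio of 1.998, lay just under that limit and Rpl32, at 2.01, just over it. At least 8-fold, 32 were higher and 35 lower. The counting interval lay wholly past 4-fold for 98 of the genes called higher and 54 of those called lower.

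**Figure D1:**
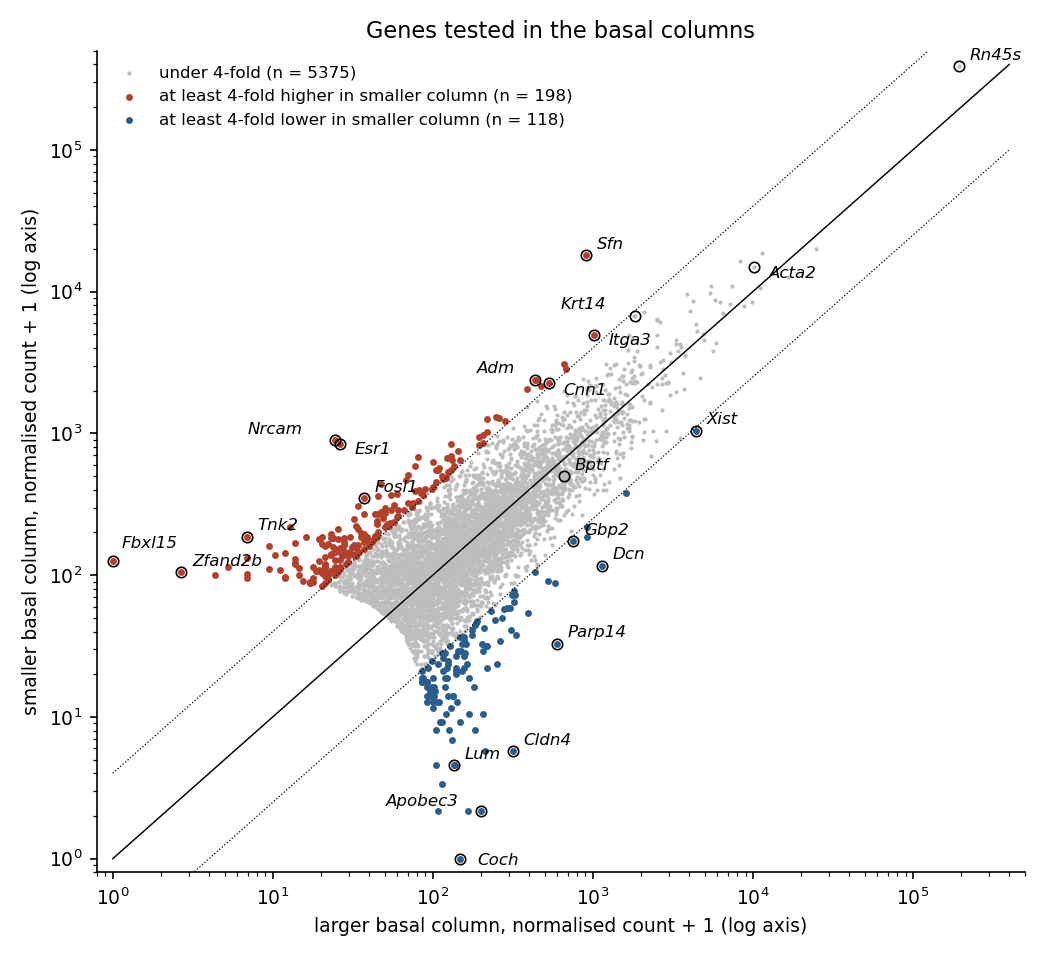
Normalised count plus 1 in the larger basal column (horizontal, log axis) against the smaller one (vertical, log axis), 1 point for each of 5691 genes with a unique symbol; the solid line marks equal values and the dotted lines 4-fold. Of these, 198 lie above the upper dotted line and 118 below the lower, and Fbxl15 and Coch sit on the axes because 1 column had 0 reads of them.

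The ratio moved with the base composition of the transcripts. Over 5668 genes with an annotated transcript, the Spearman correlation of the log2 ratio with GC content was 0.43 and that with transcript length was -0.28. With the genes split by GC content into 10 groups, the median log2 ratio was -0.28 in the 567 genes with the least GC and 0.97 in the 567 with the most, and 0.882% and 12.9% of these were called higher. Genes called higher had a median GC content of 55.8% and a median length of 2779 bases, and genes called lower 46.5% and about 4245 bases, beside 48.8% and 4010 for all. When each log2 ratio was taken relative to the median of genes of like GC content, 86 genes (1.52%) were called higher and 138 (2.43%) lower, so the balance of the directions turned. Of the 198 genes called higher 77 stayed past 4-fold, and of the 118 called lower 100 did, while 9 and 38 others passed it. On read totals without Rn45s the counts were 139 and 167, and on the upper quartile 169 and 142. GC content also moved with the ratio of the luminal columns (KO over WT, Spearman 0.36), and its part in the results below was not tested. Below, a called gene that fell short of 4-fold when GC-matched is given with its GC-matched log2 ratio, and a gene described as called without one stayed past 4-fold.

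**Figure D2:**
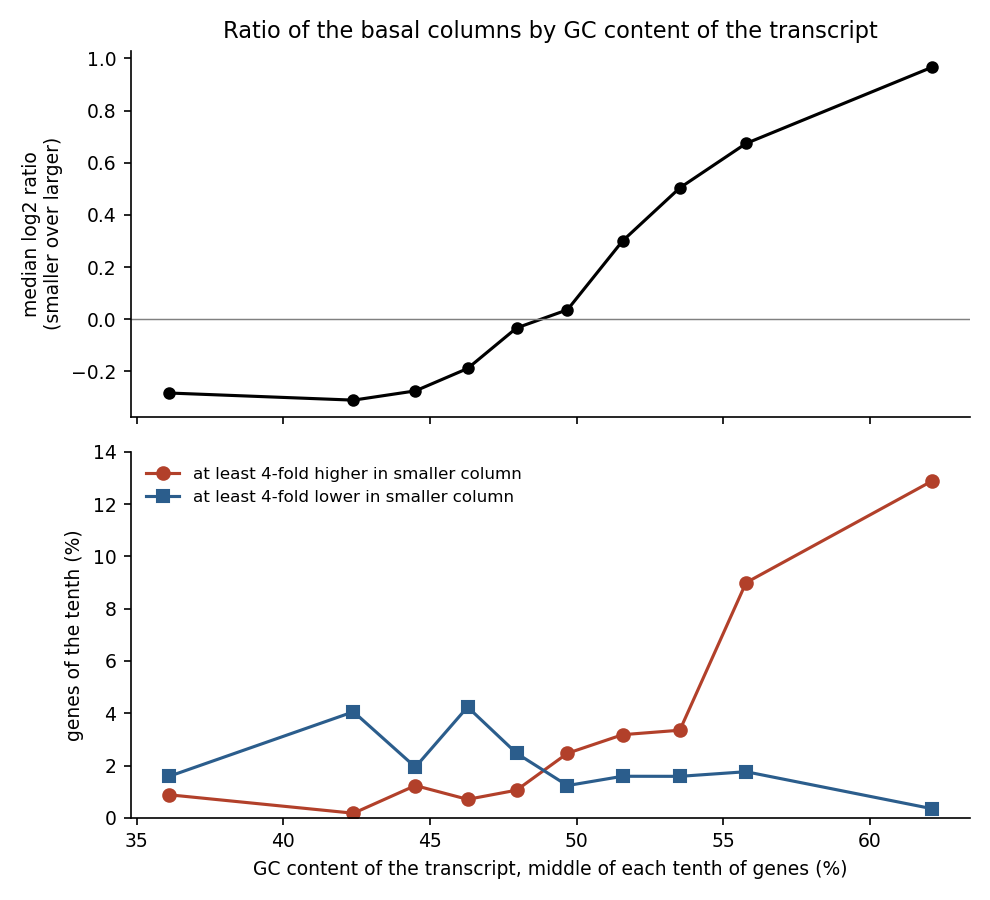
Upper panel, median log2 ratio of the basal columns (smaller over larger) in 10 groups of genes ordered by GC content of the transcript (%); lower panel, the percentage of each group called at least 4-fold higher (circles) or lower (squares) in the smaller column. The median runs from -0.28 to 0.97, and the share called higher from 0.882% to 12.9%.

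Bptf itself had 420 reads in the smaller and 780 in the larger column. Its normalised value was 1.33-fold lower in the smaller column (1.18 to 1.5), a log2 ratio of -0.41 and, GC-matched, of -0.51. On the common scale it stood at 558 and 750 in the basal columns, 571 and 736 in luminal cells headed WT and KO, and 679 in Bsecs, so the lowest and highest of the 5 levels were the basal ones. Counts over the whole gene do not check a deletion of some exons. None of 25 tested members of the NURF, ISWI and CHD remodellers was called, beside 3.47% of all genes called higher and 2.07% lower. Their median log2 ratio was -0.00 against 0.10 for all genes. Smarca1, which encodes SNF2L, had 12 and 35 reads and did not reach the minimum value. Rbbp4, the histone-binding subunit of NURF and other complexes, had 239 and 325 (log2 ratio 0.04). The widest ratios in the list were the helicase Chd6, with 39 and 188 reads (3.44-fold lower, 2.43 to 4.99), and the histone-fold protein Chrac1, with 210 and 92 (3.20-fold higher, 2.49 to 4.13). Among SWI/SNF and INO80 remodellers 1 of 20 was called, Bcl7b, at 229 and 43 reads. Histone modifiers and DNA methylation genes had 2 of 37 called higher, the deacetylase Hdac5 (217 and 70; 1.03 GC-matched) and the Polycomb protein Ring1 (160 and 43; 1.66 GC-matched). Setdb1, which methylates H3 lysine 9 and silences retroviral repeats, was counted in the list of retroviral restriction and immunity sensors and not among these 37. It was called lower, with 28 reads against 183 (4.67-fold, 3.12 to 7.22).

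Ordered by the lower bound of the counting interval, Fbxl15, Nrcam, Esr1 and Sfn came first among the genes higher in the smaller column. Nrcam, a cell adhesion molecule of neurons, had 756 reads in the smaller and 28 in the larger column, 37.8-fold (25.9 to 57.3). On that scale it stood at 1004 and 26.9 in the smaller and larger basal columns, 55.3 in luminal cells headed WT, and 0 in both knockout-headed luminal cells and Bsecs. Esr1, the oestrogen receptor of hormone-sensing luminal cells, had 713 reads against 30, 33.3-fold (23.1 to 49.7), and its level of 947 in the smaller column was above the 320 and 434 of the luminal columns. The smaller basal column was thus the highest of the 5 for both genes. Sfn, the 14-3-3 sigma protein of stratified epithelia and a p53 target, was the most abundant called gene, with 15284 reads against 1075, 19.9-fold (18.7 to 21.2). It was higher still in Bsecs, at a level of 53090 against basal levels of 20297 and 1034. Fbxl15, a substrate-binding F-box protein, had 106 reads and none, at least 49.5-fold against a floor of 3 counts in the larger column. The tyrosine kinase Tnk2 had 157 reads and 7, the netrin receptor Unc5b 135 and 10, and the neuronal calcium sensors Vsnl1 and Ncald 84 and 4, and 142 and 15. The others among the 15 genes whose interval lay farthest above 1 were Zfand2b, which binds the proteasome (88 and 2), Pik3r2, a regulatory subunit of phosphoinositide 3-kinase (95 and 5), Dohh, which hydroxylates the translation factor eIF5A (111 and 7), Kank3 (116 and 11), the trafficking protein Trappc2l (85 and 7), the scaffold Caskin1 (157 and 18), and Rapgef3, a cAMP-activated exchange factor for Rap1 (80 and 7). Most of these 15 had under 20 reads in the larger column.

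Coch, Apobec3 and Cldn4 led the genes lower in the smaller column. Coch, a secreted matrix protein, had 0 reads in the smaller and 175 in the larger column, at least 41.7-fold lower against the same floor. Apobec3, a cytidine deaminase that restricts retroviruses, had 1 and 237 reads, a ratio of 169-fold (30.1 to 6714). Cldn4, a claudin of luminal tight junctions, had 4 and 374, 66.8-fold lower (25.9 to 246). Its level was 12314 in luminal cells headed WT and 39051 in Bsecs, far above 360 in the larger basal column and 5.31 in the smaller. Il1rl1, the receptor of interleukin 33, had 8 and 244 reads, and Il33 itself 31 and 206. Lum and Abi3bp, both of connective tissue matrix, had 3 and 160, and 4 and 248. The remainder of the 15 were H6pd, which makes NADPH in the endoplasmic reticulum (1 and 194), the RNA-binding translation regulator Cpeb1 (1 and 127), the mitochondrial carnitine carrier Slc25a20 (2 and 133), the calcium channel Trpv6 (3 and 161), the interferon-induced ADP-ribosyltransferase Parp14 (27 and 704), the receptor phosphatase Ptprt (6 and 215), the semaphorin Sema4a (3 and 122), and the transcription factors Zfp710 (5 and 155) and Rreb1 (8 and 197). All 15 genes in each direction stayed past 4-fold when GC-matched. The p-values in the authors' deposited table, Benjamini-Hochberg adjusted over the 14595 genes that have one, left 4 genes (0.0274%) under 0.05, namely Nrcam, Esr1, Cldn4 and Apobec3, and 451 had an unadjusted p under 0.05. They compare 1 column with 1 column. Xist, the RNA that silences one X chromosome in females, was also called lower, with 883 reads against 5231 (4.23-fold, 3.94 to 4.55; log2 ratio -1.76 GC-matched), and its level of 1173 in the smaller column lay below the range of 4380 to 5549 in the other 4 populations.

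**Figure D3:**
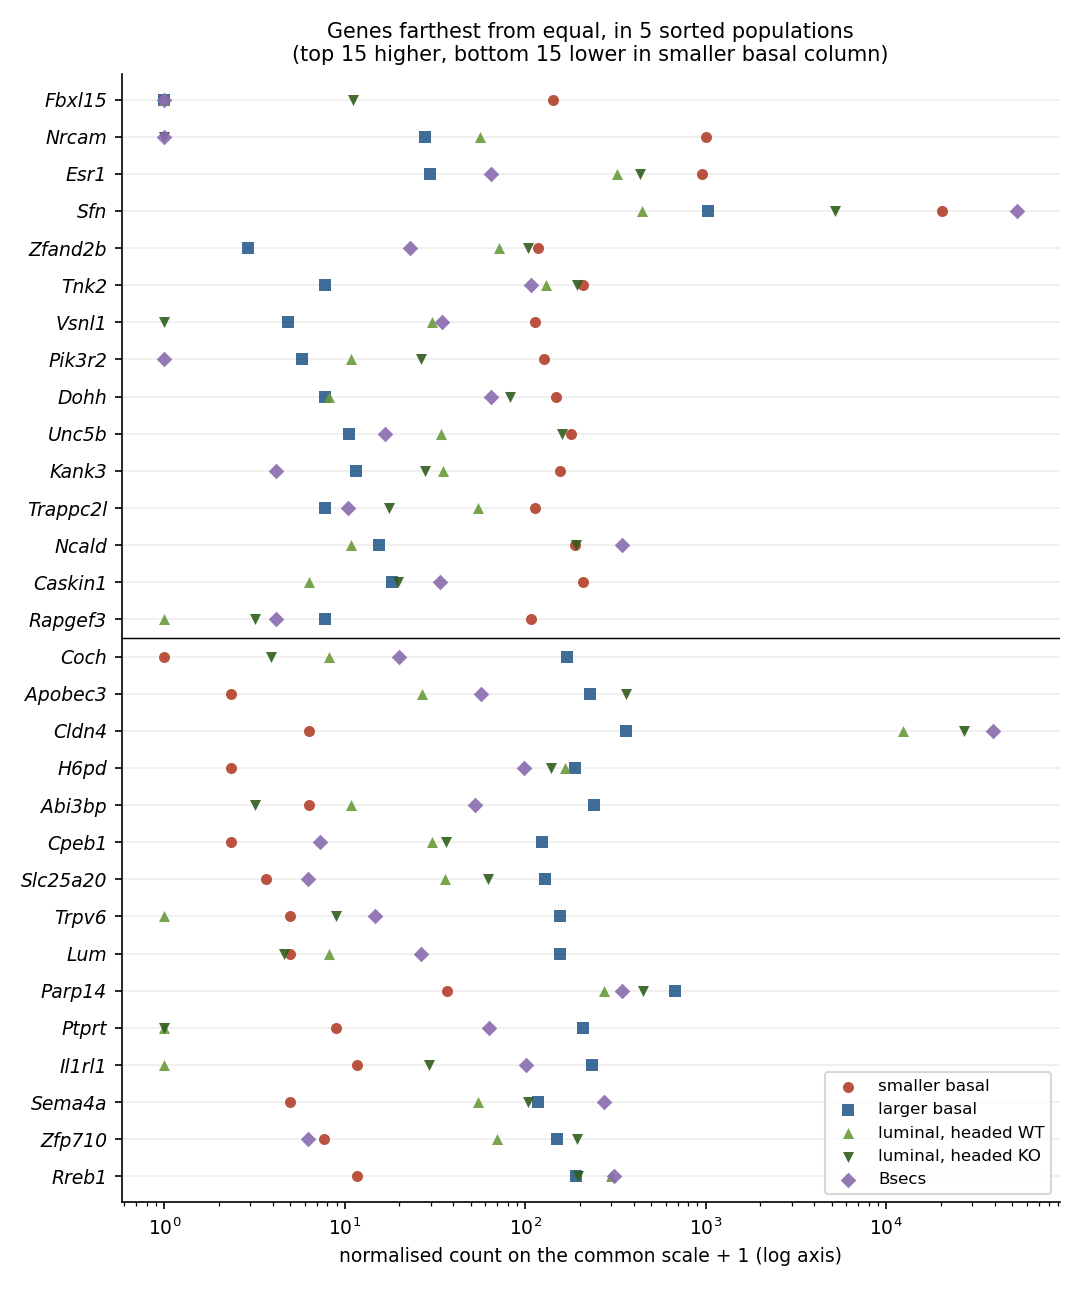
Normalised count on the common scale plus 1 (log axis) of the 15 genes farthest above and the 15 farthest below equal values, in the smaller basal (circles), larger basal (squares), luminal headed WT (triangles up), luminal headed KO (triangles down) and Bsecs (diamonds) columns, 1 value each with no replicates; markers at 1 on the axis had 0 reads and can overlap. Nrcam and Esr1 are highest in the smaller basal column, while Sfn is higher in Bsecs and Cldn4 is higher in the luminal columns and Bsecs than in either basal column.

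Basal identity genes did not move one way. Of 17 tested members 2 were called higher and 0 lower (1 and 1 GC-matched), beside 3.47% and 2.07% of all genes. Their median of 0.12 changed sign on other scales (-0.04 to 0.19). Krt14 was higher in the smaller column, with 5711 and 2175 reads (3.68-fold, 3.5 to 3.86), at a log2 ratio of 1.88 (1.04 GC-matched). So was Krt17, with 5700 and 2125 (3.76-fold, 3.57 to 3.95), at 1.91 (0.84 GC-matched). Krt5 had a log2 ratio of 0.86 (0.17 GC-matched). Krt15, under the minimum value, had 31 and 47 reads (log2 ratio -0.11, and -0.77 GC-matched). Krt16, a keratin of wounded epithelium, had 169 and 53 and was called (1.44 GC-matched), as was Wif1, a secreted Wnt inhibitor, with 211 and 37 (7.98-fold, 5.61 to 11.7). On the other side stood Trp63, and Procr and Lgr5, which are used to mark basal progenitors. Trp63, which encodes p63, had 82 and 390 reads (3.40-fold lower, 2.67 to 4.37), Procr, the protein C receptor, 136 and 661 (3.47-fold, 2.88 to 4.21; log2 ratio -2.08 GC-matched), and Lgr5, an R-spondin receptor, 23 and 109 (3.39-fold, 2.14 to 5.56). Snai2, another basal regulator, had 20 and 81 and was under the minimum value. Krt14 and Krt17 thus lay on the other side from Trp63, and none of Krt14, Krt17, Trp63, Procr and Lgr5 reached 4-fold before GC matching.

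The contractile genes leaned to the smaller column. Of 22 tested, 20 had a log2 ratio above 0, beside 3084 of all 5700 genes. In this list 1 was called higher and 1 lower, beside 3.47% and 2.07% of all genes, and the median of 0.60 was 0.14 when GC-matched. Cnn1, calponin, had 1929 and 627 reads (4.31-fold higher, 3.93 to 4.72; log2 ratio 1.81 GC-matched), Cald1, caldesmon, 5460 and 2968, the enteric actin Actg2 699 and 374, and the myosin kinase Mylk 1776 and 1621. Mrvi1, which couples cGMP kinase to calcium release, had 20 and 116 (4.14-fold lower, 2.56 to 7.03). Of 29 integrin, laminin and hemidesmosome genes 1 was called in each direction, beside the same shares of all genes. Itga3, a laminin receptor chain, had 4192 and 1196 reads (4.91-fold higher, 4.60 to 5.24; log2 ratio 1.45 GC-matched), and Nid1, which links laminin to collagen IV, 35 and 245. That list's median of 0.38 became -0.15 when GC-matched.

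**Figure D4:**
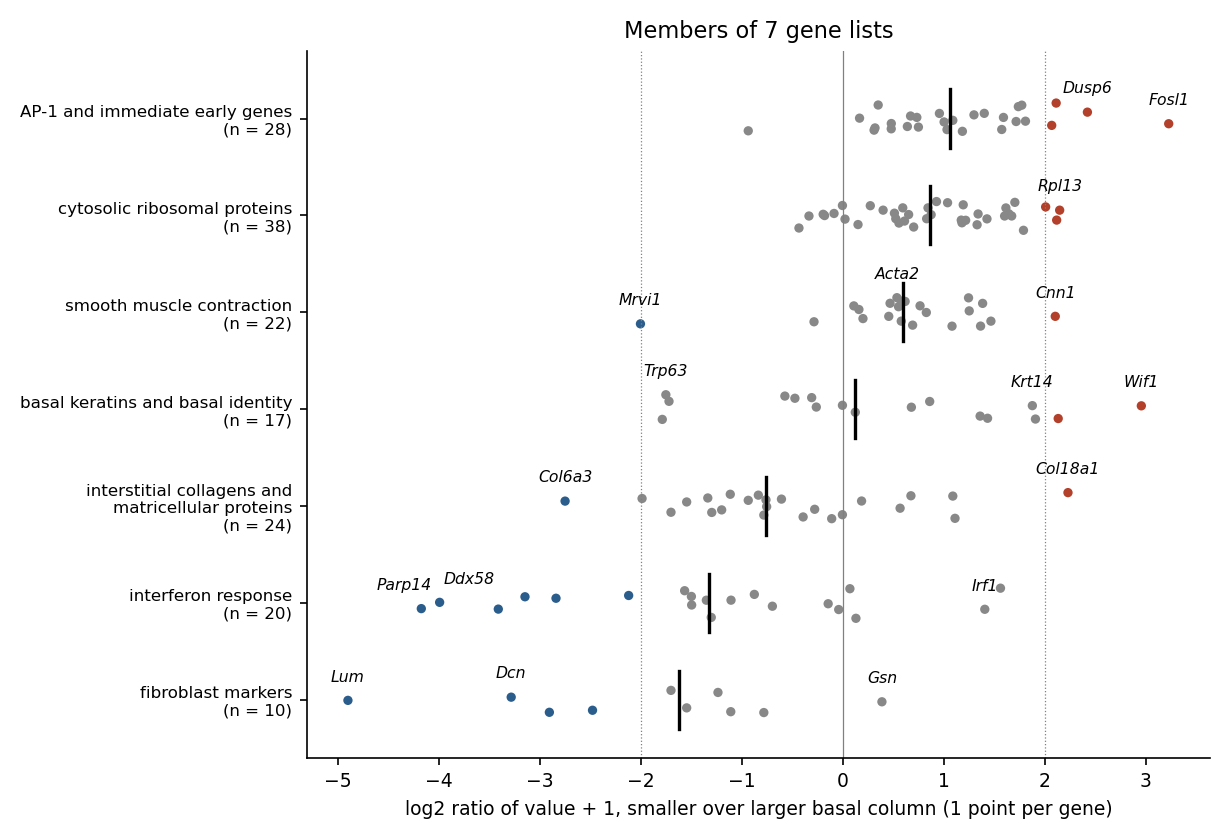
Log2 ratio (smaller over larger basal column) of every tested member of 7 gene lists, 1 point per gene, with the list median as a bar and the 4-fold limits dotted; red and blue points are past 4-fold. Fibroblast and interferon genes lie mostly to the left, with medians of -1.63 and -1.33, and immediate early and ribosomal protein genes mostly to the right, with medians of 1.06 and 0.86.

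Fibroblast genes had the lowest median of the lists with 10 or more tested members, -1.63, and -2.11 when GC-matched. Of 10 tested members, 4 were called lower and 0 higher, beside 2.07% and 3.47% of all genes. When GC-matched 6 were lower and 0 higher, beside 2.43% and 1.52% of all genes. Dcn, the proteoglycan decorin, had 98 reads in the smaller and 1349 in the larger column (9.83-fold lower, 8.01 to 12.2), Lum 3 and 160, dermatopontin (Dpt) 34 and 365, and the PDGF receptor Pdgfra 13 and 107. The collagen genes Col1a1, with 81 and 196, and Col3a1, with 40 and 185, did not reach 4-fold, and Gsn, which many epithelia express, had 854 and 914 (log2 ratio 0.39). Over all 18 markers the reads summed to 1422 in the smaller and 4360 in the larger column, with 1 and 0 members at 0. The other 8 members were under the minimum value, among them Ly6a (1 and 34), Mfap5 (6 and 59) and Pi16 (1 and 25). Fewer cells of a type and less RNA per cell cannot be told apart in these columns, and the part of fibroblasts in other differences was not tested.

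Matrix and IGF axis genes leaned to the larger column, as the fibroblast genes did. The collagen list shares members with the fibroblast list, Col1a2 and Col3a1 among them, so the lists are not independent. Of 24 collagens and matricellular proteins 18 had a log2 ratio below 0, and the median was -0.76 (-0.82 GC-matched). In this list 1 was called lower and 1 higher, beside 2.07% and 3.47% of all genes. When GC-matched 5 were lower and 0 higher, beside 2.43% and 1.52% of all genes. Col6a3 had 12 and 120 reads and was called, Col5a1 had 33 and 187 (-1.99, and -2.83 GC-matched), and Col1a2, Col3a1 and Fbln2 also passed 4-fold when GC-matched. On the higher side Col18a1, a basement membrane collagen, had 868 and 258 (4.71-fold, 4.09 to 5.43; log2 ratio 1.17 GC-matched) and fibronectin Fn1 808 and 523. Thrombospondin Thbs1, one of the most abundant transcripts of these cells, had 10667 and 19620 (log2 ratio -0.39). None of 12 IGF axis genes was called, yet their median was -0.86 (-1.15 GC-matched, with Igfbp7 then past 4-fold at -2.92). The IGF-binding proteins Igfbp7 (171 and 867), Igfbp3 (504 and 1721) and Igfbp5 (874 and 2793) were all at least 2.28-fold lower. So was Pappa (222 and 1012), a protease that acts on some IGF-binding proteins, while the receptor Igf2r had 369 and 234.

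Interferon-induced genes were the other group with a low median. Interferon signalling, through factors such as STAT2 and IRF9, acts on interferon-stimulated response elements and raises sensors, GTPases and antiviral enzymes. Of 20 tested members 6 were called lower and 0 higher, beside 2.07% and 3.47% of all genes. When GC-matched 5 were lower and 0 higher, beside 2.43% and 1.52% of all genes, and the median of -1.33 was -1.32. The ADP-ribosyltransferase Parp14 had 27 reads in the smaller and 704 in the larger column (18.6-fold lower, 12.7 to 28.5), the RNA sensor Ddx58 7 and 174 (17.8-fold, 8.44 to 44.8), Oasl2 19 and 295 (11.1-fold, 6.98 to 18.7), the GTPase Igtp 11 and 146 (9.48-fold, 5.15 to 19.4), Ifit1 17 and 178 (7.48-fold, 4.54 to 13.1) and Gbp2 146 and 894 (4.37-fold, 3.67 to 5.25; log2 ratio -1.94 GC-matched). Of the transcription factors that carry the signal, Stat2 had 75 and 261 reads and Irf9 129 and 165. Irf1, which interferon gamma and NF-kappaB induce, lay on the other side with 452 and 238 (2.66-fold higher, 2.27 to 3.12). A further 27 members were under the minimum value, and over all 47 in the table the reads summed to 1841 and 5512, with 11 members at 0 in the smaller and 1 in the larger column. Zeros were more frequent in the smaller column over all genes too, with 11788 genes having a read there and 13953 in the larger. Rsad2 had 0 and 50 reads, Isg15 0 and 17 and Mx1 0 and 21. On the common scale Parp14 stood at 35.9 and 677 in the basal columns and between 270 and 449 in the other 3 populations, so the smaller basal column was the lowest of 5.

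The response element was looked for before the starts of the genes. The motif searched was GAAA, any 2 bases and GAAA again, on both strands, in the 250 bases before the start in the RefSeq promoter table (mouse build GRCm38.p6, matched by symbol, whereas the reads were placed on mm9). It was present in 9 of 95 called-lower genes with a promoter in the table (9.47%), in 8 of 156 called higher (5.13%), in 124 of 4361 tested (2.84%) and in 936 of 27025 promoters in all (3.46%). Within 100 bases of the start the shares were 7.37%, 1.28%, 0.917% and 1.14%. The median GC content of these promoters was 56.4% for genes called lower, 60.6% for genes called higher and 61.6% for those tested, and its part in the shares was not tested. A match describes letters and is no evidence of binding. The windows of 8 of the 9 genes follow, chosen to show where the element lies, on the strand of the gene and up to 30 bases to either side, clipped at the start, with the motif (or its reverse complement) in capitals.
Igtp (chr11:58199492-58199555, plus strand): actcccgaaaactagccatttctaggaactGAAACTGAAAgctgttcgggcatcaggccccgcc
Irgm2 (chr11:58214883-58214952, plus strand): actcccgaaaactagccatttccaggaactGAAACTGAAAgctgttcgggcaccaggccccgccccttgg
Irgm1 (chr11:48871421-48871474, minus strand): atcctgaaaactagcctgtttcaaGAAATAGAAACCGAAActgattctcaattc
Ifit1 (chr19:34640774-34640843, plus strand): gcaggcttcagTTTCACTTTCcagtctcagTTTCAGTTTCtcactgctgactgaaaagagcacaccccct
Gbp2 (chr3:142620574-142620643, plus strand): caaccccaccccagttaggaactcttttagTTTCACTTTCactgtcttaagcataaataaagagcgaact
Gbp7 (chr3:142530253-142530322, plus strand): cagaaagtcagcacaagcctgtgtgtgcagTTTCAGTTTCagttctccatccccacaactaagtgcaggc
Serpinb9 (chr13:33004465-33004534, plus strand): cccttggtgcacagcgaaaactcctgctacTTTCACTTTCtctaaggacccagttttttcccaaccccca
Apobec3 (chr15:79892238-79892307, plus strand): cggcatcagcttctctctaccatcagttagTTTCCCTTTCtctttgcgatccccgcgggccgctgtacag
The match of the remaining gene, Rpp14, lay 177 bases before its start in a run of A and G.

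Of the genes behind these windows 5 encode guanosine triphosphatases of cell-intrinsic immunity. Besides Igtp, Gbp2 and Ifit1, Irgm2 had 17 reads in the smaller and 165 in the larger column, Irgm1 22 and 163, and Gbp7 27 and 180 (-1.90 GC-matched). Serpinb9, which protects cells from granzyme B, had 9 and 153, and Apobec3 1 and 237. The windows of Igtp and Irgm2 resemble each other, and these families hold genes of similar sequence, so reads may have been shared among them. Of the tested interferon list, 4 of 15 promoters held the motif, the fourth being that of Stat2. Some other immune genes lay on the same side, with the interferon-induced Ifi47 at 13 and 212, Samd9l at 15 and 198, and the immunoproteasome subunit Psmb8 at 14 and 107. Of 10 tested genes of retroviral restriction and immunity sensors 2 were called lower, Apobec3 and Setdb1, and 0 higher, beside 2.07% and 3.47% of all genes. Their median was -0.36 (-0.34 GC-matched), and 4 of them had a log2 ratio above 0, the widest being Myd88 at 144 and 58. MHC class I genes as a list had 1 of 13 called, Psmb8, beside 2.07% of all genes called lower and 3.47% higher. The median of the MHC list was -0.02 (-0.52 GC-matched), with H2-K1 at 1461 and 1372 and B2m at 1153 and 1633. Its widest ratio on the higher side was that of Tapbpl, at 174 and 79. Among chemokines and cytokines 3 of 15 were called lower, Il6 (26 and 258), Ccl7 (76 and 624) and Il33 (-1.92 GC-matched), and 1 higher, the granulocyte factor Csf3 (1834 and 558; 4.60-fold, 4.18 to 5.07; log2 ratio 1.51 GC-matched).

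Immediate early genes were higher in the smaller column as a list. Cells induce them within minutes of growth factors or stress, including the handling of tissue. Of 28 tested, 27 had a log2 ratio above 0, 4 were called higher and 0 lower, beside 3.47% of all genes called higher. When GC-matched 2 of them stayed past 4-fold, beside 1.52% of all genes, and the median of 1.06 was 0.52. The AP-1 subunit Fosl1 had 295 reads against 43 in the larger column (9.60-fold higher, 6.96 to 13.6), the ERK phosphatase Dusp6 586 and 152 (5.40-fold, 4.51 to 6.49), the GTPase Rhob 1029 and 332 (1.42 GC-matched), and Ier3 2404 and 801 (1.57 GC-matched). Fos itself had 178 and 75, Egr1 1850 and 1139 and Jun 405 and 337. NF-kappaB pathway genes had 1 of 22 called higher, the inhibitor Nfkbib (319 and 98; 1.11 GC-matched), and a median of 0.72 (0.27 GC-matched). Their target Vcam1 had 744 and 2941. The AP-1 motif TGANTCA was present before 0 of 21 immediate early genes, 10 of 156 genes called higher (6.41%), 8 of 95 called lower (8.42%) and 240 of 4361 tested (5.50%).

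Genes of ribosomes and of their assembly leaned to the smaller column as well, with few calls, none of which held when GC-matched. Ribosomal proteins had 3 of 38 called higher and 0 lower, beside 3.47% of all genes called higher, with a median of 0.86 (0.51 GC-matched). Rpl13 had 424 and 133 reads (1.84 GC-matched), Rplp1 496 and 159 (1.28) and Rpl32 408 and 141 (1.70), and each has processed copies in the genome with which it may share reads. Ribosome biogenesis genes had 3 of 36 called higher, 33 above 0, and a median of 0.75 (0.68 GC-matched). Rrp9, of the small-subunit processome, had 307 and 53 (8.11-fold, 6.04 to 11.1; log2 ratio 1.93 GC-matched), Bop1 569 and 143 (1.63 GC-matched), and Ppan 464 and 152 (1.40 GC-matched), while Dkc1, which modifies ribosomal RNA, had 91 and 449 (3.52-fold lower, 2.81 to 4.47). Myc, which drives these genes, had 3897 and 2065 reads (2.64-fold higher, 2.50 to 2.79). Its E-box CACGTG was present before 1 of 30 ribosome biogenesis genes, 21 of 156 genes called higher (13.5%), 5 of 95 called lower (5.26%) and 480 of 4361 tested (11.01%). The Rn45s share was also higher in the smaller column, at 16.2% against 9.76%. In luminal columns headed KO and WT it was 15.9% and 10.6%. There, ribosome biogenesis levels on the common scale summed to 11737 and 12380, and ribosomal protein levels to 30112 and 28537. The part of Rn45s in these lists was not tested.

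The stress and unfolded protein response list had 3 of 37 members called higher and 0 lower, beside 3.47% of all genes called higher, and a median of 0.47 (0.44 GC-matched). The unfolded protein response co-chaperone Dnajb9 had 495 and 91 reads (7.62-fold higher, 6.08 to 9.63), the transcription factor CHOP (Ddit3) 198 and 67, and the small heat shock protein Hspb1 353 and 118 (0.99 GC-matched). Hspe1, a mitochondrial chaperonin, passed 4-fold only when GC-matched (1.90, then 2.10). In the glycolysis and hypoxia list 2 of 18 were called higher and 1 lower, beside 3.47% and 2.07% of all genes. Its median was 0.70 (0.62 GC-matched). The vasodilator peptide Adm had 2019 and 516 reads (5.48-fold, 4.97 to 6.05), pyruvate kinase Pkm 724 and 243 (1.21 GC-matched), and Egln1, which marks HIF for destruction, 28 and 185. The CDK inhibitor Cdkn1a had 791 and 230 (4.81-fold higher, 4.15 to 5.6; log2 ratio 1.76 GC-matched) and the G1 kinase Cdk6 9 and 117 (9.29-fold lower, 4.73 to 20.8). Most proliferation genes were under the minimum value, with 3 of 33 S phase genes and 2 of 33 G2 and M phase genes tested, of which Mcm5, a replicative helicase subunit, was called higher (91 and 12). In the clock list 1 of 10 was called, the repressor Nr1d1 (1073 and 258; 5.82-fold, 5.08 to 6.70; log2 ratio 1.85 GC-matched), and the median was 0.68 (0.53 GC-matched).

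Lists of lipid synthesis, oxidative phosphorylation, junctions and proteolysis had at most 1 call in each direction, and the S100 and squamous list and the p53 list had more. In lipid synthesis the fatty acid elongase Elovl6 was the 1 called of 21, with 7 reads in the smaller column against 131 (13.4-fold lower, 6.31 to 33.9), and the sterol sensor Insig1 had 22 and 121 and the desaturase Fads1 22 and 104 (-2.02 GC-matched), at a list median of 0.07 (-0.18 GC-matched). Oxidative phosphorylation had 39 tested and 1 called each way, Ndufv1 of complex I (130 and 38; 1.54 GC-matched) and Sdhd of complex II (24 and 177). Of the S100 and squamous list 4 of 12 were called, beside 5.54% of all genes. Lower were the annexins Anxa1 (155 and 1085) and Anxa8 (19 and 146) and the calcium binder S100a1 (18 and 145), and Sfn was higher. Of 13 tight junction genes Cldn4 alone was called, and the list's median was -0.36 both before and after GC matching, with the adhesion receptor Cxadr at 407 and 1750. Adherens junction and desmosome genes had the protocadherin Pcdh1 called of 17 (164 and 43; 1.32 GC-matched), while P-cadherin Cdh3 had 658 and 575. Of 19 p53 targets and apoptosis genes Sfn and Cdkn1a were called higher and Casp8, an initiator caspase, lower (14 and 100), and Trp53 itself had 1002 and 721. The list's reads summed to 19809 and 7061, of which Sfn made up 15284 and 1075. Of 12 genes of the plasminogen system and serpins 1 was called, Serpinb9, which was lower, at a list median of 0.57 (0.35 GC-matched). None of 16 metalloproteases and inhibitors was called, and none of 19 regulators of epithelial and mesenchymal transition, of which Zeb2, at 23 and 127, had the widest ratio.

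Signalling pathways held calls on both sides, beside 3.47% of all genes called higher and 2.07% lower. Among guidance and adhesion genes of axons 4 of 23 were called higher, Nrcam, Unc5b, the ephrin receptor Epha2 (574 and 94) and Sema4b (236 and 55; 1.87 GC-matched), and 2 lower, Sema4a and the Robo ligand Slit3 (18 and 183), with a median of 0.18 (-0.11 GC-matched). In the Wnt pathway the receptor Fzd1 (41 and 318) and its adaptor Dvl3 (30 and 174) were called lower and the inhibitor Wif1 higher, out of 22. The Notch ligand Dll1, which basal cells make, was the 1 called of 11, with 824 and 242 reads (4.77-fold higher, 4.13 to 5.52; log2 ratio 1.59 GC-matched). Of 16 tested hedgehog and Hippo pathway genes 2 were called lower, beside 2.07% of all genes. These were the Hippo kinase adaptors Mob1a (48 and 327; -1.97 GC-matched) and Sav1 (60 and 371; -1.80 GC-matched). Neither call held when GC-matched, and the Hippo effector Yap1 had 968 and 684. None of 12 EGF family genes was called at a median of 0.62 (0.47 GC-matched), with the ligands Hbegf at 140 and 55, Nrg1 at 534 and 276 and Ereg at 760 and 401. None of 28 TGF-beta, BMP and activin genes was called, at a median of -0.03, and their log2 ratios ran from -0.98 to 1.22. Of 10 tested FGF and PDGF genes 2 were called lower, Pdgfra, which is also in the fibroblast list, and its ligand Pdgfc (15 and 102). Pdgfb had 719 and 277.

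**Figure D5:**
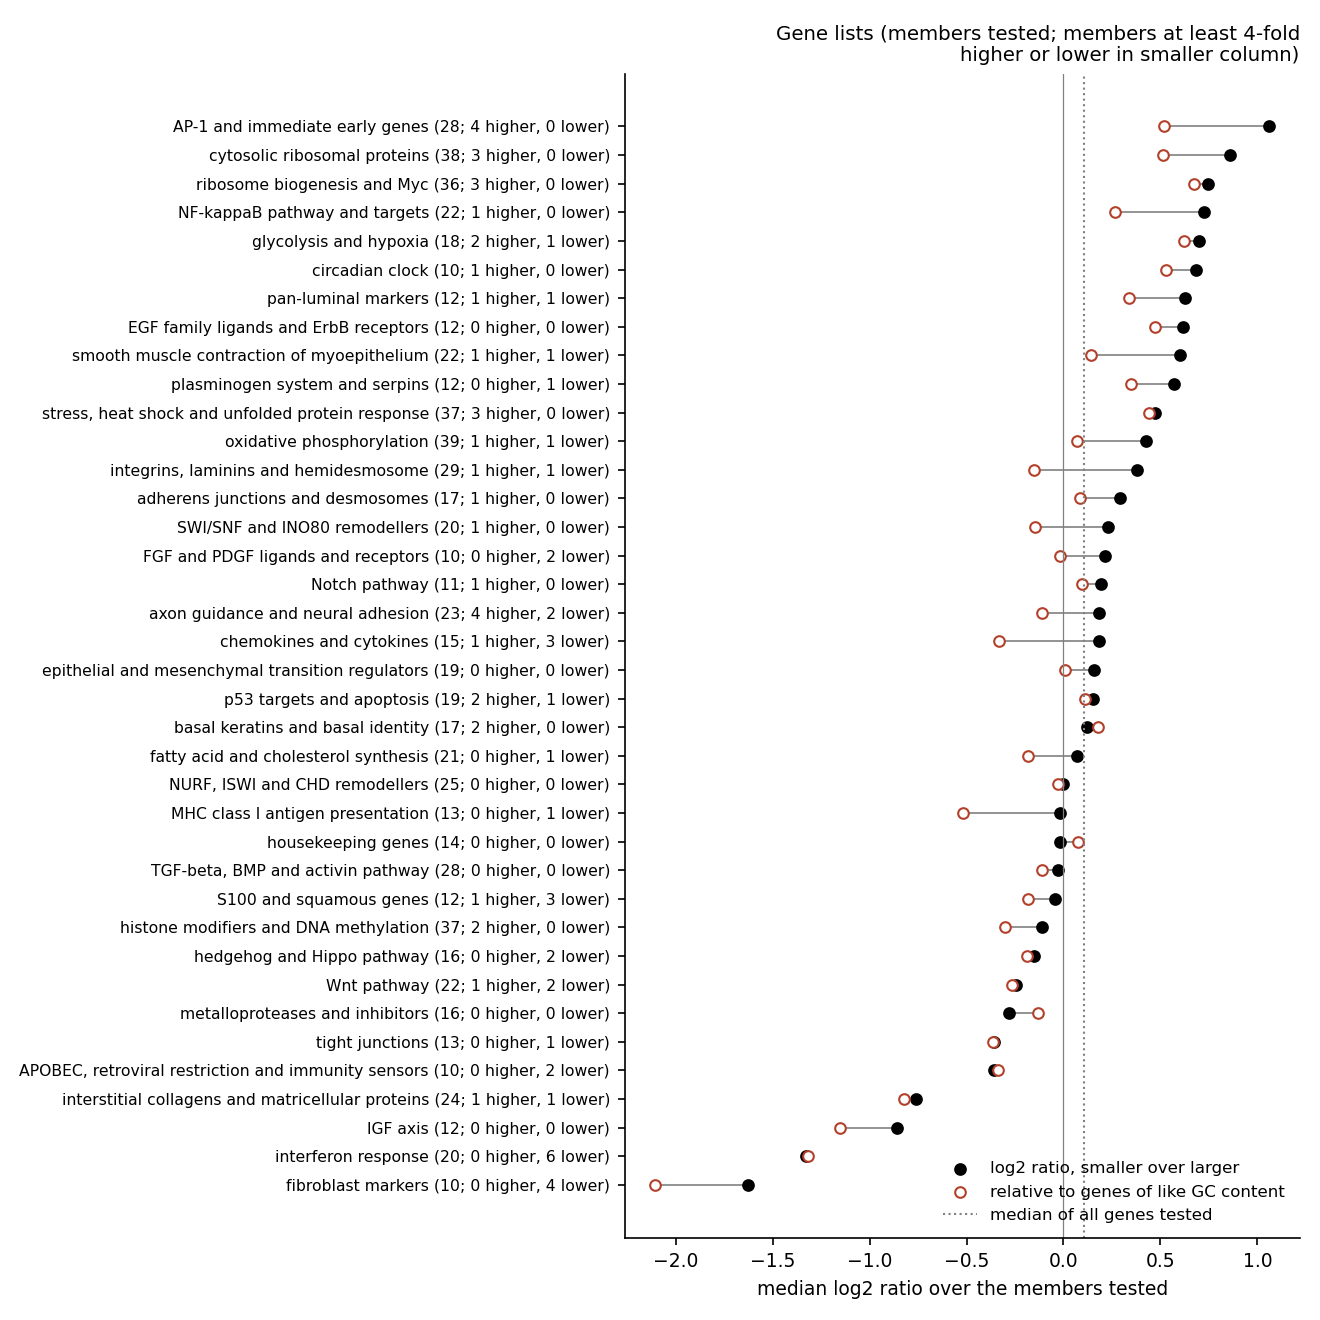
Median log2 ratio (smaller over larger basal column) of each list with at least 10 tested members, as filled points, and the same relative to genes of like GC content, as open points; brackets give the members tested and those past 4-fold in each direction, and the dotted line marks the median of all genes, 0.10. The medians run from -1.63 for fibroblast markers to 1.06 for immediate early genes, and several near 0 cross it when GC-matched.

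Markers of other cell types did not all lie on one side. Few of them were tested, and their calls stand beside 3.47% of all genes called higher and 2.07% lower. Of 12 tested pan-luminal genes Krt19 was called higher (116 and 37; 1.26 GC-matched) and Cldn4 lower, and Krt8 had 350 and 123 reads (3.98-fold higher, 3.23 to 4.93). Summed over all 24 in the table, pan-luminal levels were 17155 and 17146, against 90156 and 116687 in the luminal columns. Of the hormone-sensing list 2 of 18 were tested, Esr1 and Tbx3 (152 and 149), and the others were low, with Pgr at 37 and 18, Foxa1 at 0 and 2, Cited1 at 0 and 1, and Prlr at 3 and 28. The list had 11 members at 0 in the smaller and 2 in the larger column, beside the high count of Esr1. The full palindromic oestrogen response element, searched on both strands, was present before 0 of 4361 tested genes and in 18 of 27025 promoters in all (0.067%). An element this rare cannot show whether targets of the receptor differed. Milk genes had 1 of 5 tested called, the mucin Glycam1 (19 and 193 reads). Endothelial genes had 1 of 1 tested called, Cdh5 (15 and 117), with sums over 16 members of 152 and 384. Pericyte markers summed to 87 and 406 reads, Schwann and nerve markers to 612 and 744, and leukocyte markers to 78 and 49, of which 18 of 24 were at 0 in either column. The part of these cells in the differences was not tested.

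The luminal columns share no reads with the basal ones, so they show whether the same genes differed there. Of 6973 genes with a mean of at least 50, 156 (2.24%) were at least 4-fold higher and 116 (1.66%) lower in the column headed KO, whose libraries carry a label naming BptfWT mice as their source although their titles name the knockout. Over 4969 genes tested in both, the log2 ratios (smaller over larger basal, KO over WT luminal) had a Pearson correlation of 0.19 and a Spearman correlation of 0.21, and 0.03 when each was GC-matched. Of 132 genes called higher in the smaller basal column and tested in luminal cells, 8 were at least 4-fold higher and 0 lower in the luminal column headed KO. Of 72 called lower, 2 were higher and 2 lower. Apobec3 and Deptor, an inhibitor of mTOR, were on opposite sides, with Apobec3 at 29 reads in WT and 499 in KO luminal cells and Deptor at 15 and 102, beside 31 and 389 in the smaller and larger basal columns. Sfn, Unc5b, Dohh and Ncald were on the same side, with Sfn at 497 and 7159 luminal reads. Nrcam and Vsnl1, also called higher in the smaller basal column, were under the luminal minimum value and so outside these counts. They lay on the other side, with 62 and 0, and 33 and 0 reads in WT and KO luminal cells. Interferon genes lay on both sides in luminal cells, where Parp14 had 303 and 621 reads, Ddx58 a log2 ratio of 0.95 and Gbp2 one of -0.44.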

How the data were processed

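RNA of sorted cells was extracted with TRIzol, amplified with the Ovation V2 kit for small inputs and made into Ovation Ultralow DR libraries, per the labels' protocols. STAR, DESeq and the build mm9 are named in the submitters' processing notes; no version, annotation, counter or strand setting is given in the sources used here. The deposited data of the authors are 6 tables, of which 4 were used here, with 1 signal value per gene and column: the read count divided by the DESeq size factor, per the file headers' baseMean names, and a p-value. The files hold 0 columns per library and 0 columns of other origin. Every signal value was a whole multiple of 1 step per column (100% of the deposited values within 0.01 of a count), so read counts were recovered, and the columns were followed through the tables by their counts.

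With 1 column a group the planned edgeR quasi-likelihood test has no residual spread. A gene was called at a 4-fold ratio of values plus 1, with exact binomial (Clopper-Pearson) 95% intervals of the ratio. Reads amplified by PCR and lacking molecular identifiers are not independent, and intervals and floors cover only the error of counting. Folds against 0 used a floor of 3 counts in that column. The common scale uses median-of-ratios factors over the 5 columns. GC content and length are those of the longest transcript in GENCODE (GRCm38), matched by symbol, and GC-matched ratios subtract the median of 20 equal bins of genes ordered by GC content; this was added after the data were seen. Promoters are from RefSeq. Genes with date-like or duplicated symbols were left out of the per-gene results (9 of those tested).

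The members and the 50 gene lists (1430 distinct genes, 13 not in the table, 749 tested) were chosen with earlier results of these data known. The rule for names took Bptf, then 15 genes per direction whose interval lay farthest from 1, leaving aside small RNAs and predicted genes, then for each list 6 members at most with the largest ratio and the defining markers. Other genes were named after their values were seen. The steps were tested on simulated data. Software was Python 3.11.15, pandas 2.3.3, SciPy 1.17.1, R 4.3.3 and edgeR 4.0.16. Alternatives tried were other scalings, minimum values, thresholds and a pseudocount of 10, and, added later, GC and length matching, an assumed dispersion, the deposited p-values and leaving out predicted genes. Values of 1 member of the interferon list are not reported here.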

Additional observations from a re-analysis of the deposited data

How the results depend on the processing

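No paired analysis was possible because the files hold no values per library, and leaving out each library in turn was not run for the same reason. Main counts were 198 higher and 118 lower. With a minimum mean value of 20 they were 390 and 364, with 100 they were 105 and 40, and with none 866 and 1945. At 2-fold they were 1004 and 673, at 8-fold 32 and 35, and 98 and 54 where the whole counting interval had to lie past 4-fold. With a dispersion of 0.16 assumed, the exact test of edgeR gave 114 and 236, and adjusted deposited p-values gave 2 and 2. Relative to genes of like GC content 86 were higher, and 80 relative to genes of like GC content and length, beside 138 and 137 lower. TMM gave 202 and 114, totals without Rn45s 139 and 167, the upper quartile 169 and 142, a pseudocount of 10 gave 137 and 85, and leaving out predicted genes 188 and 118. The scalings shift each log2 ratio by -0.17 (totals without Rn45s), -0.08 (upper quartile) or 0.01 (TMM). With no minimum value the median of the hormone-sensing list went from 2.76, over 2 genes, to -0.88, and that of the milk list from -1.07, over 5 genes, to 0.60. The cause of these changes was not tested, except that minimum values and thresholds alter which genes can be counted. Bptf was at -0.41, and at -0.11 relative to genes of like GC content and length.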
